A study of Mus musculus with 6 samples.

Results

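The MS4A genes encode small membrane proteins with several membrane-spanning segments, and 8 of them were followed here: Ms4a7, Ms4a14, Ms4a4a, Ms4a4b, Ms4a4c, Ms4a6b, Ms4a6c and Ms4a6d, all in the MS4A cluster of mouse chromosome 19. They were listed by name out of 49585 genes counted in the files, to see whether the cluster differed between genotypes as a whole or through Ms4a7 alone. The members were chosen by their family and with their counts in these same 6 libraries in view, so their differences between genotypes are given as a description, with no test. All 8 had at least 1 count, and 5 passed the filter on low counts (Ms4a7, Ms4a4a, Ms4a6b, Ms4a6c and Ms4a6d). Ms4a14, Ms4a4b and Ms4a4c were too low to be fitted.

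The samples were microglia, the resident macrophages of the brain, from 3 wild-type mice (WT) and 3 mice labelled IRF8KO, a knockout of the transcription factor IRF8. All animals were male and aged 3 months, and none was treated. Cells came from single brains, were freed without enzymes and were sorted by flow cytometry into TRIzol before bulk RNA sequencing. The strain, the form of the Irf8 allele and the sort markers are not given in the sources used here.

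MS4A proteins sit at the cell surface and in internal membranes, and many of them join immune receptors. The founding members are Ms4a1, which encodes the B-cell antigen CD20, and Ms4a2, the beta chain of the high-affinity IgE receptor, which strengthens signals from immunoreceptor chains to the kinases LYN and SYK. MS4A7 and MS4A4A are macrophage members: Ms4a7 is widely used to tell macrophages at the borders of the brain from microglia, and the human MS4A4A and MS4A6A genes lie in a region linked to Alzheimer's disease and to soluble TREM2. The mouse has an enlarged set of Ms4a4 and Ms4a6 genes, which arose by duplication.

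Coordinates are from GENCODE M21 on GRCm38, the assembly also called mm10. From one end of the group to the other, the members were Ms4a14 (chr19:11301249-11314454, minus strand), Ms4a7 (chr19:11321039-11336146, minus), Ms4a4a (chr19:11375523-11392790, plus), Ms4a4c (chr19:11404770-11427246, plus), Ms4a4b (chr19:11443553-11467055, plus), Ms4a6c (chr19:11469366-11482192, plus), Ms4a6b (chr19:11516512-11531256, plus) and Ms4a6d (chr19:11586604-11604849, minus). The values of each gene are reads over its exons.

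The Ms4a6 genes are close copies, which bears on how reads were given to them. Their coding sequences were 85.4% identical between Ms4a6b and Ms4a6c, 80.6% between Ms4a6b and Ms4a6d and 76.2% between Ms4a6c and Ms4a6d, while Ms4a7 was 60.4% identical to Ms4a6b. Ms4a6b and Ms4a6d share an exact coding stretch of 81 bases, the longest run common to them, which is shown because a read lying wholly inside it has 2 places to map. Ms4a6c differs from it at 4 bases, in capitals:
Ms4a6b and Ms4a6d: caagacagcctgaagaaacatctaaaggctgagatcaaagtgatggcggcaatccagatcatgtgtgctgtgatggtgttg
Ms4a6c: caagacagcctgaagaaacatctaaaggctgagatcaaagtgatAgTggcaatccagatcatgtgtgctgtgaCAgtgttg
Of the stretches of 50 bases in each gene's transcripts, 3.57% in Ms4a6b and 2.54% in Ms4a6d also occurred in another gene's transcripts, against 0.306% in Ms4a7 and 0% in Ms4a4a and Ms4a14. The share was 51.4% in Ms4a6c, mostly from the antisense gene BE692007, whose exons overlap 53.1% of the exonic length of Ms4a6c. The most alike pair was Ms4a4b and Ms4a4c, at 91.7% coding identity with a common run of 127 bases. The reads counted were those with 1 mapped place, so reads lying wholly inside a stretch shared between copies were dropped rather than moved. Reads on the overlap of Ms4a6c and BE692007 have 1 place, and were left out because they lie on 2 genes.

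Promoter windows, the 250 bases before each RefSeq transcription start on GRCm38.p6, were found for 7 of the 8 members, in 8 windows since Ms4a7 has 2 starts. They were searched on both strands for GGAA and GAAA set 2 bases apart, the joint element of PU.1 and IRF8, for GAAA and GAAA set 2 bases apart, a tandem IRF element, for GAGGAAGT, a PU.1 site, and for the E-box CACGTG. No window held any of them. Among 32851 promoter windows of the same length these letters were found, in the same order, in 2.30%, 2.98%, 2.44% and 6.02%, so most windows lack them. The Ms4a7 window with the start nearest the gene's annotated 5′ end (chr19:11336147-11336396, minus strand) and the Ms4a6c window (chr19:11469118-11469367, plus strand) are shown as the windows of the member with the largest difference and of a copied pair. Capitals mark the 48 bases, positions 202 to 249 of the window, that also occur in the Ms4a6b window, which lies inside the annotated Ms4a6b gene and holds 106 of its exonic bases:
Ms4a7: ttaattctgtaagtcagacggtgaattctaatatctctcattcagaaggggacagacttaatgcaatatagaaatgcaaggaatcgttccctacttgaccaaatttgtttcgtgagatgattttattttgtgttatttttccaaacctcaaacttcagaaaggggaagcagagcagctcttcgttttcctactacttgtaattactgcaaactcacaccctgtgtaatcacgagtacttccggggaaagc
Ms4a6c: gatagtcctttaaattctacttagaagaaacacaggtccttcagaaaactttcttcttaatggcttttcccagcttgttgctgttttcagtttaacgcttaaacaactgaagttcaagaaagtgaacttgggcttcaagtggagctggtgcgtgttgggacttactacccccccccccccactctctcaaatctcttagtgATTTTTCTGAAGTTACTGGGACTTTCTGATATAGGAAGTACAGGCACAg

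Levels are given in CPM, counts per 1000000 gene counts of the library after TMM scaling, which sets the libraries on a common scale from the bulk of their genes. Gene counts were between 3658917 and 10859529 in the WT libraries and between 8994860 and 11098363 in the IRF8KO libraries, so that 3 counts, the floor used for genes at 0, were worth between 0.212 and 0.584 CPM. Apoe, which encodes an abundant lipid carrier, took 0.154% to 0.324% of gene counts in WT and 25.5% to 33.7% in IRF8KO. Irf8 itself stood at 795, 851 and 1403 CPM in WT and 743, 650 and 850 CPM in IRF8KO. Its groups overlapped and it was not called (adjusted p = 0.37, edgeR quasi-likelihood test), so whole-gene counts do not show the knockout, and IRF8KO means the libraries so labelled throughout. With library size alone as the scale, Irf8 was called lower (log2 fold change −0.90). Of 8 microglial markers, 3 were called lower and none higher, with a summed level of 39050 to 65280 CPM in WT and 25950 to 36550 CPM in IRF8KO. In bulk RNA, fewer cells of a type and less RNA per cell cannot be told apart.

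Across the 11041 genes fitted, edgeR's quasi-likelihood test called 2109 at a Benjamini-Hochberg adjusted p of at most 0.05, which is 19.1%: 9.64% were higher in IRF8KO and 9.46% lower. The median log2 fold change of these genes was −0.11. With library size alone as the scale the median was −0.61, and 651 genes were called higher and 1908 lower, so that 25.4% of the called genes were higher in place of 50.5%. In this fit the 5 fitted members were all called higher, and nothing is read from that count, since the list was drawn up on the same contrast. Ms4a7 and Ms4a4a passed the filter through the IRF8KO libraries only. The libraries of the 2 genotypes did not overlap for 37.9% of all fitted genes, and all 3 IRF8KO libraries were above all 3 WT libraries for 20% of them and for each of the 5. The number of genes called was 910 to 1308 without WT replicate 1, WT replicate 2, IRF8KO replicate 1 or IRF8KO replicate 3, 1998 without IRF8KO replicate 2 and 4003 without WT replicate 3.

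Ms4a7 was close to undetected in WT and abundant in IRF8KO. It had 6, 9 and 7 counts in WT replicates 1, 2 and 3 and 3594, 3277 and 3389 counts in IRF8KO replicates 1, 2 and 3. These are 1.17, 0.637 and 0.965 CPM in WT and 577, 294 and 368 CPM in IRF8KO, or 0.923 ± 0.268 against 413 ± 147 CPM (mean ± SD, n = 3). Every IRF8KO library lay far above every WT library, and IRF8KO replicate 1 was the highest. The log2 fold change was 8.87 with a standard error (SE) of 0.48, and the ratio of the scaled count totals was 465, with a 95% interval of 307 to 742 that covers counting error only. Ranked by CPM per kilobase of exon among 11034 fitted genes with a length, Ms4a7 stood at place 10393 in WT and at place 517 in IRF8KO.

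**Figure D1:**
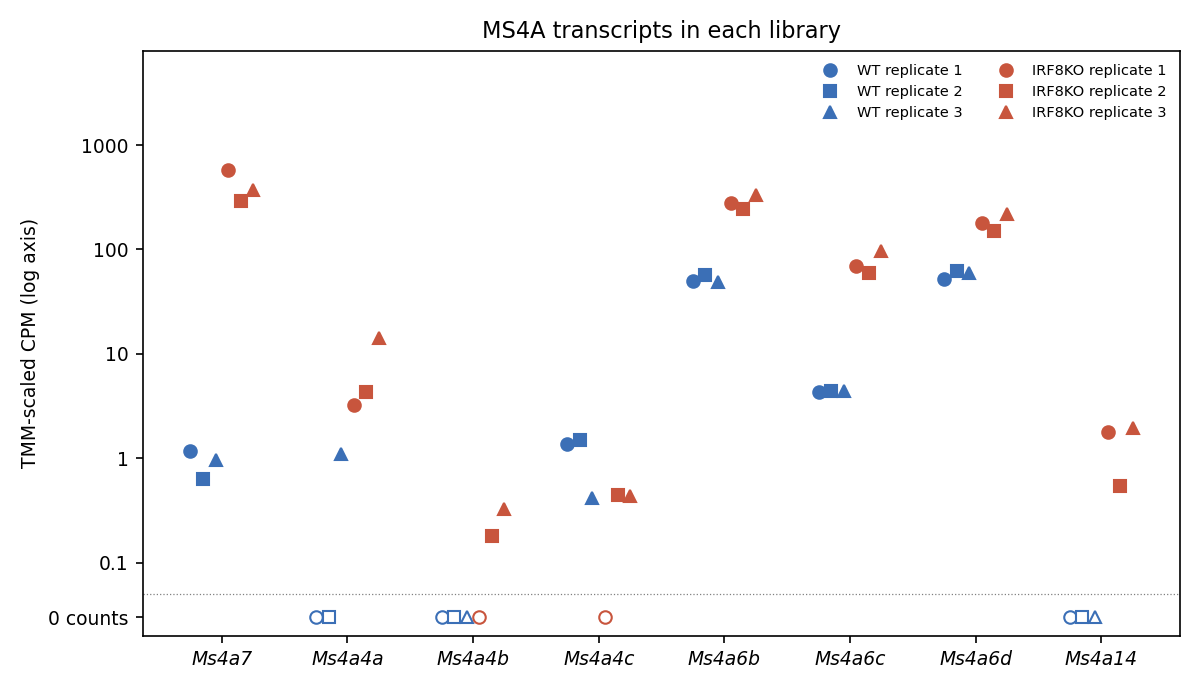
TMM-scaled CPM of the 8 MS4A members (log axis) in each of the 3 WT libraries (blue) and 3 IRF8KO libraries (red), with libraries at 0 counts as open symbols on a separate line. Ms4a7 separates the genotypes most widely, Ms4a6b, Ms4a6c and Ms4a6d are separated with less distance, and Ms4a4c overlaps.

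The Ms4a6 genes differed less, each by a different amount. They encode myeloid members of the family related to human MS4A6A, and each had at least 22 counts in every WT library.

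Ms4a6c had 4.28, 4.39 and 4.41 CPM in WT and 70.0, 60.1 and 97.6 CPM in IRF8KO, or 4.36 ± 0.0703 against 75.9 ± 19.4 CPM (n = 3). The groups were far apart. The WT levels were almost equal, but they rest on 22, 62 and 32 counts. Counted by strand, the same WT libraries held 21, 57 and 18 on the first strand setting and 30, 55 and 25 on the second, which is less even. Its log2 fold change was 4.12 (SE 0.33). Since its antisense neighbour BE692007 overlaps most of its exons and the libraries carry no strand, reads of the pair cannot be told apart, and reads on both genes at once were not counted for either. Counting reads by strand gave 3.81 on the first and 3.38 on the second strand setting.

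Ms4a6b had 49.6, 57.1 and 48.9 CPM in WT and 277, 244 and 331 CPM in IRF8KO. The lowest IRF8KO library stood above the highest WT library, at means of 51.9 ± 4.55 and 284 ± 44.3 CPM (n = 3). The log2 fold change was 2.45 (SE 0.28), a fold of 5.47.

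Ms4a6d had 52.5, 62.3 and 59.1 CPM in WT and 180, 150 and 219 CPM in IRF8KO, at means of 58.0 ± 4.99 and 183 ± 34.6 CPM (n = 3). Its fold change was the smallest of the 5 fitted members. The groups again did not overlap, and IRF8KO replicate 3 was the highest library for each of the 3 Ms4a6 genes. The log2 fold change was 1.66 (SE 0.28), a fold of 3.15. The exons of the members hold 37.2% to 44.1% G and C, against a median of 50.1% over the fitted genes. With a GC offset in the fit, the log2 fold changes were larger, at 3.18 for Ms4a6b and 9.58 for Ms4a7, both over 1.5 times the reported fold.

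The Ms4a4 genes did not form a group that differed one way. Ms4a4a, the relative of human MS4A4A, had 0, 0 and 8 counts in WT and 20, 48 and 131 counts in IRF8KO. That is 0, 0 and 1.10 CPM against 3.21, 4.31 and 14.2 CPM, or 0.368 ± 0.637 against 7.24 ± 6.06 CPM (n = 3). The groups did not overlap, but all its WT counts came from WT replicate 3 and most of its IRF8KO counts from IRF8KO replicate 3. The log2 fold change was 4.33 (SE 1.20). It was 3.36 without IRF8KO replicate 3. Without WT replicate 3, WT is left at 0 counts, and the fitted 9.07 then depends on the prior count and is no estimate. Ms4a4a was no longer called without WT replicate 1, WT replicate 2 or IRF8KO replicate 3, or with library size alone as the scale. The ratio of its scaled count totals was 24.8 (95% counting interval 12.4 to 58.2).

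Ms4a4c was the member with a ratio below 1. It had 7, 21 and 3 counts in WT and 0, 5 and 4 in IRF8KO, which are 1.36, 1.49 and 0.414 CPM against 0, 0.449 and 0.434 CPM. The groups overlapped, and the ratio of the scaled totals was 0.290 (95% counting interval 0.121 to 0.623). Ms4a4b, a T-cell member of the family, had 0 counts in WT and 0, 2 and 3 counts in IRF8KO. Against a floor of 3 counts over the WT group this is a ratio of 1.66, which takes the IRF8KO counts as exact and is no lower limit. With so few reads a difference cannot be told. The presence of Ms4a4b in IRF8KO thus rests on 5 reads. The gene shares a run of 127 bases with Ms4a4c, but only 2.40% of the stretches of 50 bases in its transcripts occurred in those of another gene.

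Ms4a14 lies next to Ms4a7, on the same strand. It had 0 counts in every WT library and 11, 6 and 18 counts in IRF8KO or 1.77, 0.538 and 1.95 CPM, at a mean of 1.42 ± 0.768 CPM (n = 3). Against that floor of 3 counts over the WT group this is a ratio of 11.6, which takes the IRF8KO counts as exact and is no lower limit.

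Per length, the order of the members changed between genotypes. By CPM per kilobase of merged exon, the WT order was Ms4a6d (33.4 ± 2.88), Ms4a6b (11.6 ± 1.02), Ms4a6c (2.13 ± 0.0343), Ms4a4c (0.621 ± 0.335), Ms4a4a (0.440 ± 0.762) and Ms4a7 (0.207 ± 0.0600), with Ms4a14 and Ms4a4b at 0 counts (n = 3 each). Ms4a6d, Ms4a6b and Ms4a6c did not overlap with one another, whereas the ranges of Ms4a4c and Ms4a4a, and of Ms4a4a and Ms4a7, did. In IRF8KO the order was Ms4a6d (105 ± 19.9), Ms4a7 (92.7 ± 33.0), Ms4a6b (63.3 ± 9.87), Ms4a6c (37.0 ± 9.48), Ms4a4a (8.66 ± 7.25), Ms4a14 (0.349 ± 0.189), Ms4a4c (0.168 ± 0.146) and Ms4a4b (0.0192 ± 0.0186). There Ms4a7 overlapped with both Ms4a6d and Ms4a6b, and Ms4a14, Ms4a4c and Ms4a4b overlapped as neighbours. This order depends on the length used: merged exons of Ms4a7 span 4453 bases and its longest coding transcript 1576 bases, and with that transcript Ms4a7 was at 262 ± 93.1 CPM per kilobase in IRF8KO, ahead of Ms4a6d at 129 ± 24.4 and Ms4a6b at 106 ± 16.5.

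**Figure D2:**
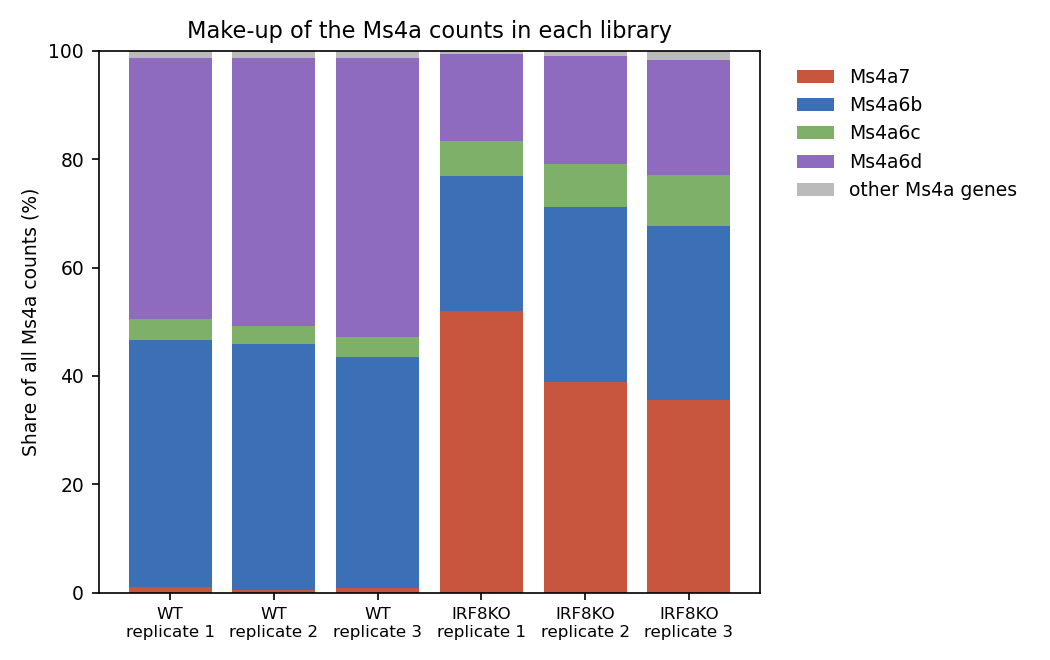
Share of all Ms4a counts (%) that each gene took in each library, with WT on the left and IRF8KO on the right and all remaining Ms4a genes in grey. Ms4a6b and Ms4a6d make up nearly all Ms4a counts in WT, and Ms4a7 takes 35.6% to 52% in IRF8KO.

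The make-up of the Ms4a transcripts does not depend on how libraries are scaled. Of all counts on Ms4a genes, Ms4a7 held 1.07%, 0.505% and 0.839% in WT and 52%, 38.9% and 35.6% in IRF8KO. Ms4a6d, which held the largest share in WT at 48.2%, 49.4% and 51.4%, held 16.2%, 19.9% and 21.2% in IRF8KO. Its level was higher there while its share was lower. Ms4a6b went from 45.5%, 45.3% and 42.6% to 25.0%, 32.3% and 32.1%. Ms4a6c went the other way, from 3.93%, 3.48% and 3.84% to 6.31%, 7.96% and 9.46%. Leaving Ms4a7 out, the Ms4a genes together summed to 108, 126 and 114 CPM in WT and 532, 461 and 665 CPM in IRF8KO, so the sum over the other genes also separated the genotypes.

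Ratios between genes within a library do not depend on the scaling either. The Ms4a6b to Ms4a6d count ratio was 0.944, 0.917 and 0.828 in WT and 1.54, 1.63 and 1.51 in IRF8KO, or 0.896 ± 0.0612 against 1.56 ± 0.0584 (n = 3). The Ms4a6c to Ms4a6d ratio was 0.0815, 0.0705 and 0.0746 in WT and 0.389, 0.401 and 0.446 in IRF8KO. Both ratios, on counts without strand, varied little within a genotype and did not overlap between genotypes, so these counts of the 3 Ms4a6 genes differed by unequal factors. Reads on both Ms4a6c and BE692007 are left out of them. The WT counts of Ms4a6c by strand were less even, so its ratio varies more when counted that way. The Ms4a7 to Ms4a6d ratio, 0.0222, 0.0102 and 0.0163 in WT, was 3.21, 1.96 and 1.68 in IRF8KO, and varied more within IRF8KO than the ratios among the Ms4a6 genes.

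Within a genotype, the Ms4a6 genes varied together, mainly over the IRF8KO libraries. In log2 CPM, Ms4a6c lay −0.025, 0.009 and 0.016 from its genotype mean in WT replicates 1, 2 and 3. In IRF8KO replicates 1, 2 and 3 it lay −0.087, −0.305 and 0.392 from that mean. Over the 6 libraries, deviations of log2 CPM from the genotype mean correlated at r = 0.93 between Ms4a6b and Ms4a6d, 0.91 between Ms4a6c and Ms4a6d and 0.88 between Ms4a6b and Ms4a6c. Between 0.67% and 2.15% of all other fitted genes reached such an r with a gene of the pair, and the median r of each Ms4a6 gene with all other fitted genes was 0.06 to 0.07. Ms4a4a was at 0.56 with Ms4a6c, 0.49 with Ms4a6d and 0.21 with Ms4a6b, values that at least 13.9% of all genes reached. For Ms4a7 the values were −0.09 with Ms4a6b, 0.07 with Ms4a6c, 0.00 with Ms4a6d and −0.09 with Ms4a4a. Its WT deviations rest on 6 to 9 counts and those of Ms4a4a on 0 to 8, so a relation with these genes cannot be read from them. In IRF8KO replicates 1, 2 and 3 the deviations were 0.54, −0.43 and −0.11 for Ms4a7 and −0.01, −0.27 and 0.28 for Ms4a6d. The points share libraries and scaling factors, and removing 2 group means leaves few independent values, so these correlations are a description only.

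The rest of the family was absent or nearly so. Of 11 other annotated Ms4a genes, 8 had 0 counts in all 6 libraries (Ms4a1, Ms4a5, Ms4a8a, Ms4a10, Ms4a12, Ms4a13, Ms4a15 and Ms4a18), among them the gene for CD20, and a count of 0 allows up to 0.212 to 0.584 CPM in a library. Ms4a4d had 6 counts, all in IRF8KO replicate 1. Ms4a2, the IgE receptor beta chain, had 2 counts, both in WT replicate 2. Ms4a3, a gene of granulocyte and monocyte progenitors, had 21 counts, all in IRF8KO replicate 2. That library also held 319 CPM of the neutrophil markers other than Csf3r, against 0 to 0.803 CPM in each of the other 5. It did not hold the highest level of any fitted member.

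Tmem176a and Tmem176b, MS4A-like membrane proteins encoded as neighbours on chromosome 6, rose in IRF8KO. Tmem176b stood at 625, 682 and 1198 CPM in WT and 3722, 2687 and 3219 CPM in IRF8KO (log2 fold change 1.94, SE 0.37, adjusted p = 0.0037, edgeR). Tmem176a stood at 342, 452 and 906 CPM in WT and 3092, 2139 and 2612 CPM in IRF8KO (log2 fold change 2.21, SE 0.41, adjusted p = 0.0033, edgeR). Both were higher in each IRF8KO library than in any WT library, and WT replicate 3 was the highest WT library for both.

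Genes around the cluster were examined to see how far the difference reached. Of 16 other genes between the Ms4a genes, 2 were fitted, AW112010 and BE692007, and both rose. Of 52 genes within 500 kb outside, 17 were fitted, and 1 rose and 1 fell, beside the 19.1% of all fitted genes that were called. Over all 19 fitted genes the median log2 fold change was −0.14, beside −0.11 for all fitted genes. Their direction depended on the scale: of the 19, 1 was called higher and 4 lower with library size alone, and 4 higher and 0 lower with Apoe left out. The nearest fitted genes outside the cluster were not called: Ccdc86 had a log2 fold change of −0.34 (SE 0.26, adjusted p = 0.40, edgeR) and Mrpl16 one of 0.13 (SE 0.35, adjusted p = 0.83).

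The noncoding gene AW112010, within the Ms4a region, rose from 8.56, 12.7 and 11.03 CPM to 50.1, 38.6 and 60.5 CPM (log2 fold change 2.20, SE 0.33, adjusted p = 0.00079, edgeR) and was called in all 18 alternatives. With the GC offset its log2 fold change was 2.82. BE692007, the antisense partner of Ms4a6c, also rose (log2 fold change 3.15, SE 0.81, adjusted p = 0.019), with the limit on strand given for Ms4a6c. It was called in 14 of 17 alternatives and lost the call with library size alone and without WT replicate 1 or IRF8KO replicate 2. Its log2 fold change was 2.42 without IRF8KO replicate 2, 4.11 without WT replicate 2 and 4.05 with the GC offset. Tmem216 rose (1.80, SE 0.55, adjusted p = 0.040) and the splicing factor gene Prpf19 fell (−1.04, SE 0.33, adjusted p = 0.047), and these were called in 8 and 11 of 18 alternatives: Prpf19 lost its call without any 1 library, and Tmem216 without any 1 library except WT replicate 3. Of the 19 genes, 1 was called without WT replicate 1 or IRF8KO replicate 2, 2 without WT replicate 2, IRF8KO replicate 1 or IRF8KO replicate 3, and 5 without WT replicate 3.

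**Figure D3:**
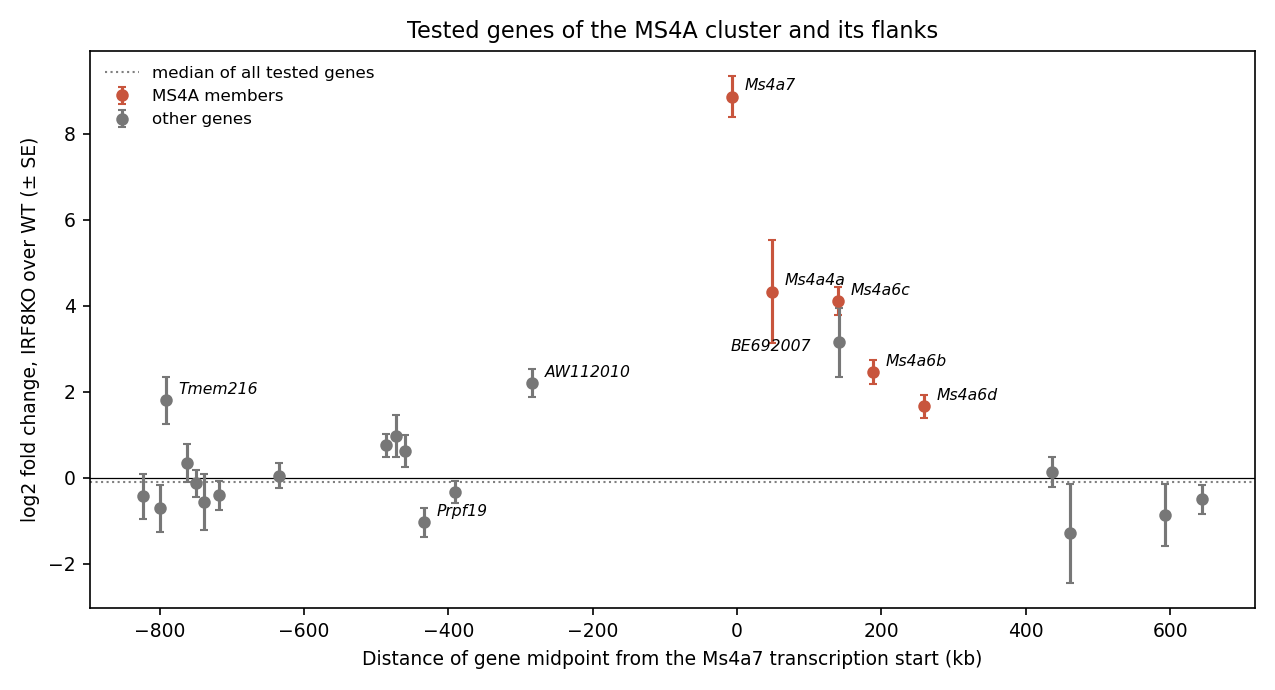
log2 fold change (IRF8KO over WT, ± SE) of every fitted gene of the MS4A cluster and its flanks, against the distance in kb of the gene's midpoint from the Ms4a7 transcription start. The 5 fitted members (red) lie between 1.66 and 8.87, whereas most other genes (grey) lie near the dotted line at the median of all fitted genes.

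Genes whose products are known to act with MS4A proteins or their relatives did not follow one direction. Of a list of 15, 10 were fitted, and 4 rose and 1 fell, beside 9.64% and 9.46% of all fitted genes. Clec7a, the receptor dectin-1, which works with MS4A4A in macrophages, rose from 2.34, 3.97 and 6.20 CPM to 31.3, 60.4 and 26.7 CPM (log2 fold change 3.23, SE 0.47, adjusted p = 0.00072, edgeR), with no overlap between genotypes and a call in all 18 alternatives.

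The signalling adaptors Fcer1g (log2 fold change 1.75, SE 0.37, adjusted p = 0.0071, edgeR) and Tyrobp (1.65, SE 0.41, adjusted p = 0.016) rose, as did the inhibitory receptor gene Cd300a (0.94, SE 0.29, adjusted p = 0.043). Lyn, the kinase that acts on the IgE receptor beta chain, fell (−1.41, SE 0.34, adjusted p = 0.013). Fcer1g, Lyn, Tyrobp and Cd300a were called in 17, 15, 14 and 10 of 18 alternatives, and none of the 4 was called without IRF8KO replicate 3. Without WT replicate 1, WT replicate 2 or IRF8KO replicate 1, the genes called among the 10 numbered 3, 2 and 2. Trem2, which encodes the receptor tied to the human locus, was not called (log2 fold change 0.48, adjusted p = 0.40), nor was Syk (−0.08, adjusted p = 0.85). The alpha chain of the IgE receptor, Fcer1a, had 0 counts in every library.

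Some markers of other macrophages also differed between genotypes. Of 11 border-associated macrophage markers, from which Ms4a7 was left out, 7 were fitted and all 7 were called higher, beside 9.64% of all fitted genes. Cd163 and F13a1 had 0 counts in every WT library and passed the filter through the IRF8KO libraries only. The count of calls is thus a description. The summed level was 611 to 834 CPM in WT and 3525 to 4459 CPM in IRF8KO. Stab1, at 602, 651 and 823 CPM, made up nearly all of the WT sum, and Stab1 and Pf4 nearly all of the IRF8KO sum. Lyve1 and Cd209f were at 0 counts in all 6 libraries, and Folr2 and Clec10a reached at most 0.276 and 1.19 CPM. Mrc1, the mannose receptor, stood at 3.70, 2.62 and 3.03 CPM in WT and 24.6, 60.8 and 32.5 CPM in IRF8KO, and Cd163 at 0 counts in WT and 8.67, 12.5 and 7.48 CPM in IRF8KO. Summed over the list, IRF8KO replicates 1, 2 and 3 held 4459, 3525 and 4149 CPM. On the TMM scale this is the order of libraries for Ms4a7, but both share the scaling factors. In counts before scaling, Stab1 and Pf4 were lowest in IRF8KO replicate 1, where Ms4a7 was highest. The match thus depends on the scale, and nothing is read from it. On the TMM scale Stab1 (2308, 1767 and 1775 CPM), Siglec1 (125, 112 and 117 CPM) and Cbr2 (51.8, 32.3 and 38.3 CPM) had the order of the sums. The other fitted markers, Mrc1, Cd163, F13a1 and Pf4, did not. The part of such cells in the Ms4a levels was not tested.

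Markers of other blood cells were summed in the same way. The 8 neutrophil markers held 651 to 1000 CPM in WT and 870 to 1314 CPM in IRF8KO, nearly all of it Csf3r outside IRF8KO replicate 2. None of 8 monocyte markers was fitted, and they summed to 0.276 to 1.42 CPM in WT and 0.321 to 51.4 CPM in IRF8KO, where the highest sum was in replicate 2; F10 was at 0 counts in all 6 libraries. T-cell markers summed to 0 to 1.63 CPM in WT and 3.41 to 5.64 CPM in IRF8KO, with Cd3e, Cd3g, Trbc1 and Cd8a at 0 counts. Cd4, at 0 counts in WT and 4.17, 3.32 and 4.45 CPM in IRF8KO, was the fitted gene of that list. It passed the filter through the IRF8KO libraries only, so its call as higher is a description. Mast cell and basophil markers summed to 0 to 0.389 CPM in WT and 0.538 to 1.12 CPM in IRF8KO, and 6 of 8 were at 0 counts throughout. B-cell markers went the other way, from 528 to 867 CPM in WT to 29.3 to 40.9 CPM in IRF8KO, with Pax5 at 0 counts.

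**Figure D4:**
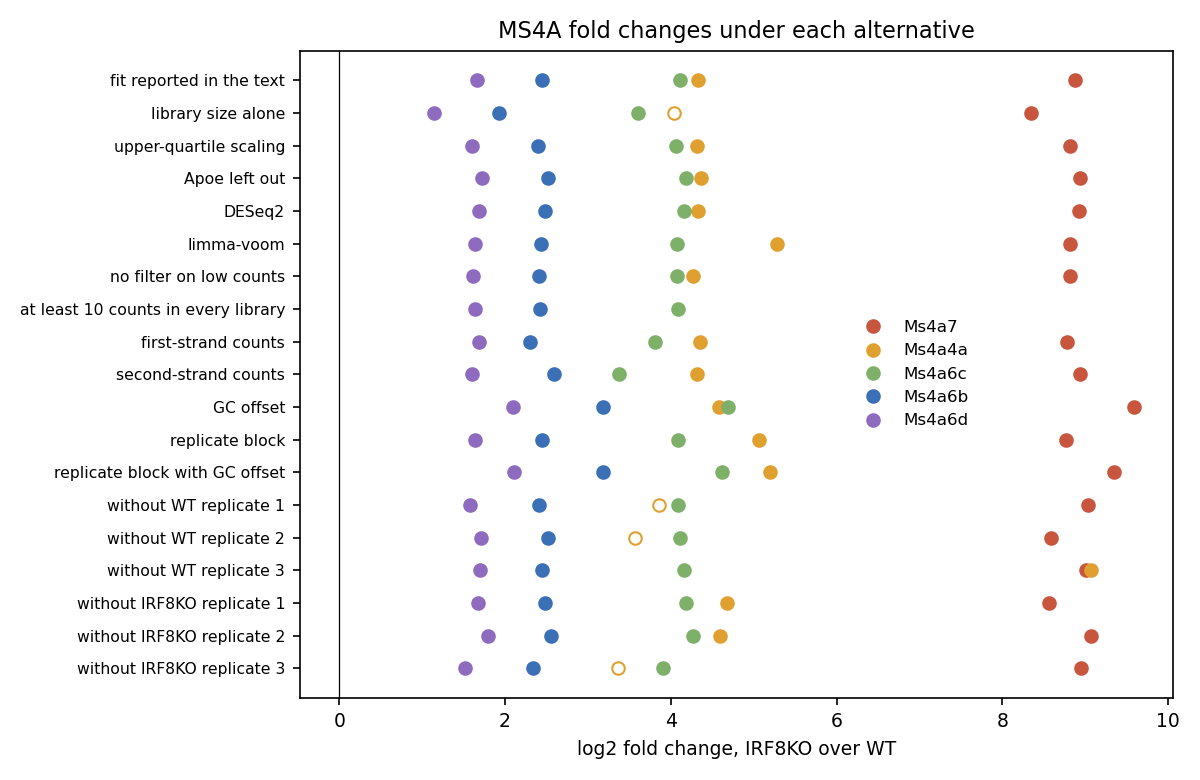
log2 fold change (IRF8KO over WT) of the 5 fitted members in the reported fit and under each of 18 alternatives, filled where the gene was called and open where it was not. Ms4a7, Ms4a6c, Ms4a6b and Ms4a6d stay in the same order from right to left, whereas Ms4a4a ranges from 3.36 to 9.07, the latter fitted over WT libraries at 0 counts.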

How the data were processed

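Bulk RNA sequencing libraries of sorted microglia (3 WT, 3 IRF8KO) were used. The authors deposited raw counts per gene for each library, in the layout that STAR writes, giving unstranded counts and those of either strand. Per the submitters' processing notes, STAR 2.5.2b, Picard 2.17.11, bcl2fastq, Subread and featureCounts and the build mm10 were used, with no role given. Per the labels' protocols, cDNA came from the SMART-Seq v4 kit and libraries from Nextera XT, without strand or molecular identifiers, so PCR copies count as reads and intervals cover counting error only. Own-strand shares were 49.8% to 50.3%, so the count without strand was used. Of 49585 genes, 49326 matched GENCODE M21.

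The 6 libraries were fitted with edgeR 4.0.16 in R 4.3.3: default expression filter (minimum count 10), TMM scaling, genotype as the single term, quasi-likelihood F test, Benjamini-Hochberg threshold 0.05. This scheme was tested on simulated data for the same contrast (10012 genes): it called 85.3% of genes changed 8-fold and 3.06% of those changed 2-fold, with 9 false calls. SE were derived from the F statistic. For the deviations within a genotype, log2 CPM had a prior count of 2. Alternatives used DESeq2 1.42.0, limma 3.58.1, other scalings and filters, strand counts, a GC offset, a replicate block and leaving out each library. Merged exons or the longest coding transcript gave length, the latter chosen after seeing the data. Coding sequences were compared by global alignment of bases. Chi-square per degree of freedom between libraries of a group was 8.57 for WT replicates 1 and 2 and 23 to 83.6 for the other pairs, so no library appeared to be deposited again.

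The members and all gene lists were chosen with earlier results of these data known. Named genes were the members, Irf8, other Ms4a genes with a count, called flanking and linked genes, the nearest fitted flanking genes, and the 5 most like Ms4a7. Apoe, Ms4a genes at 0 counts, Tmem176a and Tmem176b, single markers and the linked genes Trem2, Syk and Fcer1a were named outside that rule.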

Additional observations from a re-analysis of the deposited data

How the results depend on the processing

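As a description of members chosen on this contrast, log2 fold changes were 8.35 to 9.58 for Ms4a7 over 17 alternatives (with at least 10 counts in every library it was not fitted) and, over 18, 3.38 to 4.69 for Ms4a6c, 1.92 to 3.18 for Ms4a6b and 1.14 to 2.11 for Ms4a6d. The lowest of these values for Ms4a7, Ms4a6b and Ms4a6d came with library size alone. Ms4a4a was not called with library size alone (4.04) and spanned 3.36 to 9.07 when single libraries were left out, the latter over WT libraries at 0 counts and no estimate. The highest values of the other 4 came with a GC offset, alone or with the replicate block. Members called numbered 3 with at least 10 counts in every library, which removes Ms4a7 and Ms4a4a, 6 with no filter, which adds Ms4a14, and 4 to 6 with single libraries left out. Genes called over all fitted genes numbered between 910, without IRF8KO replicate 3, and 4003, without WT replicate 3. Flanking genes called spanned 1 to 5 and linked genes 1 to 6 in the same runs. With Apoe left out, 57.3% of the called genes were higher. Replicate numbers did not pair the samples: same-numbered deviations correlated at −0.26, 0.33 and 0.11. With the replicate block, 5 members and 2353 genes were called, and of the linked genes 3 higher, without Cd300a, and 2 lower. The latter split was also seen without IRF8KO replicate 2. Ms4a7, Ms4a4a, Ms4a6b, Ms4a6c and Ms4a6d kept their direction in each alternative that fitted them. Ms4a4b, Ms4a4c and Ms4a14 were too low for the reported fit. Ms4a14, at 0 counts in WT, was also fitted and called higher without WT replicate 3 and without IRF8KO replicate 2. It passed the filter there through its IRF8KO counts only, so these calls are a description and no support for a difference.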

Other observations

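The 5 genes whose levels tracked Ms4a7 most closely were picked by Pearson's r of log2 CPM over the 6 libraries, among fitted genes whose mean level was 10 CPM or more. They were Pilrb2, which encodes a paired immunoglobulin-like receptor (0.111 ± 0.10 CPM in WT and 45.3 ± 10.4 CPM in IRF8KO), Il18bp, the secreted inhibitor of interleukin-18 (2.86 ± 0.332 and 82.5 ± 13.5 CPM), Baiap2, an actin-regulating adaptor (7.28 ± 0.813 and 61.6 ± 9.79 CPM), Fcgr4, an activating IgG receptor (9.32 ± 0.748 and 42.0 ± 6.0 CPM), and Plekhf1 (1.70 ± 0.399 and 37.8 ± 5.75 CPM), with n = 3 in each group. Each had r above 0.99. The libraries fall into the 2 genotypes, which lie far apart for all 5, so such values mostly restate that difference and say little of how the genes vary within a genotype.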
